A study of Homo sapiens with 36 samples.

Results

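The 7 genes described here are established targets of the aryl hydrocarbon receptor (AHR): CYP1A1, CYP1B1, TIPARP, HAS3, AHRR, NQO1 and SLC7A5. They were taken as a fixed list of symbols, chosen with earlier results of these data known, so counts of targets called are descriptive. All 7 were among the 59607 features of the total RNA tables. Of the 7, 5 were among the 60095 features of the polyA tables, which do not list CYP1A1 and TIPARP. RNA came from HCT116 cells, a human colon carcinoma line. In the DIS3-AID cells, a clone made by CRISPR, the exosome ribonuclease DIS3 carries the auxin-inducible degron and TIR1 is expressed constitutively. The control line expressed TIR1, the plant receptor that marks degron-tagged proteins for destruction, with no tag on DIS3. Each line was given 500 uM auxin for 1 h or left untreated, so each data set had 4 groups of 3 libraries: auxin-treated and untreated DIS3-AID cells, and auxin-treated and untreated control cells. The 3 data sets were chromatin total RNA, cytoplasm total RNA and cytoplasm polyA RNA, or 36 libraries in all. TIR1 and, after treatment, auxin were thus present in the control cells too, and all DIS3-AID values come from cells of 1 clone. The cytoplasm triplicates are technical per the labels, and for the chromatin triplicates the labels do not say whether they came from separate cultures. All p-values thus reflect the spread between libraries, which may be technical.

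AHR is a transcription factor that waits in the cytoplasm bound to HSP90 and p23 until a small planar molecule binds it. It then enters the nucleus, pairs with ARNT and binds DNA at sites with the core GCGTG. Indoles made from tryptophan by gut microbes and by cells are among its known ligands in the intestine. Natural auxin, indole-3-acetic acid, is itself an indole; the labels say only "auxin", without the compound. CYP1A1 and CYP1B1 are the monooxygenases that break down many AHR ligands, and TIPARP and AHRR are feedback inhibitors of the receptor. HAS3 makes hyaluronan, NQO1 is a quinone reductase that is also a target of NRF2, and SLC7A5 is the light chain of the LAT1 amino acid transporter.

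The promoters of 4 of the genes whose chromatin RNA changed most are shown because they carry the core letters to which the receptor pair is known to bind. Sequences are from RefSeq (GRCh38.p14), from 250 bases before to 50 after a listed start, 5′ to 3′ on the gene's strand, with each GCGTG, or CACGC where the core lies on the other strand, in capitals. The CYP1A1 entry is chr15:74725479-74725778 on the minus strand, TIPARP is chr3:156674340-156674639 (plus), HAS3 is chr16:69107290-69107589 (plus) and AHRR is chr5:321464-321763 (plus).
CYP1A1: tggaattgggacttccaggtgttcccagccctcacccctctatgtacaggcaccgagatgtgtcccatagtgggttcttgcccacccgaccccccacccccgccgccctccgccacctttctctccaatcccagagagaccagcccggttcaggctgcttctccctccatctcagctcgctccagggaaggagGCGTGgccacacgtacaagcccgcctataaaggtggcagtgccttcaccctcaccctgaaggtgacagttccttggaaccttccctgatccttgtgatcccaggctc
TIPARP: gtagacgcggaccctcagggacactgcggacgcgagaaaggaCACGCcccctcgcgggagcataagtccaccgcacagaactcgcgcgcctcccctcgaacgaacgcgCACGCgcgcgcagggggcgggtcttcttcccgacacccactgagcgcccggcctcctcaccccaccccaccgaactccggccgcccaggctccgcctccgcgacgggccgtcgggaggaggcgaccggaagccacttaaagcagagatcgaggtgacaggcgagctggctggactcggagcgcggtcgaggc
HAS3: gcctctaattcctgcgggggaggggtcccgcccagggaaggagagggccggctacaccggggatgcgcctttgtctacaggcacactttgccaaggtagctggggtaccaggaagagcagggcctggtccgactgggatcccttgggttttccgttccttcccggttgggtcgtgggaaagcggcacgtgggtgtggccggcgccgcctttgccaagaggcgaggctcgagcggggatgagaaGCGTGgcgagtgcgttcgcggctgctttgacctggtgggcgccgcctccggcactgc
AHRR: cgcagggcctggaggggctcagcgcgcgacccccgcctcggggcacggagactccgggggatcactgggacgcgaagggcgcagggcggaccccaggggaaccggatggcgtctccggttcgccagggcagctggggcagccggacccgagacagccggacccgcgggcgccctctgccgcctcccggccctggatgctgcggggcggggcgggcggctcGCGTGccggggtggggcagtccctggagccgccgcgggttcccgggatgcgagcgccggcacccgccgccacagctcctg

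Of the 7 genes, 6 had an entry and CYP1B1 had none. All 6 held GCGTG, on either strand, in at least 1 of their listed promoters, and 7 of their 9 entries did, against 36.5% of 35116 promoter windows of the same length. The entries without a match were all of TIPARP, whose window shown was its only entry with the core. TIPARP had 2 matches in the window shown, and NQO1 and SLC7A5 had 1 each. A further AHRR entry, not shown, had 2. The longer form TNGCGTG was present in 2 of the 9 entries, those of AHRR and NQO1 (5.51% of all windows). A match describes letters in a window and is not evidence of binding.

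The CYP1A1 gene lies on chromosome 15 at 74719542 to 74725610 on the minus strand (GENCODE 29, hg38), CYP1B1 on chromosome 2 at 38066973 to 38109902 (minus), and TIPARP on chromosome 3 at 156673235 to 156706770 (plus). AHRR lies on chromosome 5 at 304176 to 438291 (plus). Chromosome 16 holds the other three: HAS3 at 69105564 to 69118719 (plus), NQO1 at 69706996 to 69726951 (minus) and SLC7A5 at 87830023 to 87869488 (minus). Values are counts over each gene's features, and whether intronic reads were included is not given in the sources used here.

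Libraries held 50.3 to 139 M counts for chromatin, 59.4 to 122.6 M for cytoplasm total RNA and 25.9 to 33.1 M for polyA RNA (M, mega-counts). Levels are given as CPM, counts per M of the scaled library size. DIS3 RNA was 30.4 to 37.5 CPM in chromatin of DIS3-AID libraries, against 52.1 to 62.1 CPM in control libraries. In cytoplasm total RNA it was 45.2 to 52.1 CPM in DIS3-AID libraries and 87.6 to 96.5 CPM in control libraries. The degron acts on the protein, which was not measured. Of the 10 colon epithelial markers checked, 6 had a median of at least 1 CPM in each total RNA data set, and 3 were below 0.1 CPM. The 6 fibroblast, 6 blood cell and 6 hepatocyte markers summed to at most 18.3, 3.52 and 0.772 CPM in any total RNA library. The fractions separated known RNAs: all 6 features of chromatin-retained RNAs were higher on chromatin of untreated control cells (median log2 difference 3.97), and all 8 cytoplasmic mRNAs were lower (median -6.00).

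On chromatin, the AHR targets other than NQO1 were higher after auxin in both lines, and NQO1 was higher in control cells alone. Of the 7, 6 passed as higher in DIS3-AID cells and 7 in control cells, where 11% and 9.02% of the 24966 features tested passed as higher (edgeR quasi-likelihood test, Benjamini-Hochberg adjusted p < 0.05; 20.5% and 17% passed in either direction). The median log2 change of the 7 was 0.96 in DIS3-AID cells and 0.99 in control cells, against 0.00 and 0.01 over all features. As the 7 were chosen with earlier results of these data known, these counts and medians describe them and are not a test. In this fraction of bulk RNA, more cells making an RNA and more RNA per cell cannot be told apart. Ranked by p among the 24966 features of control chromatin, CYP1A1 stood at 3, HAS3 at 6 and TIPARP at 8.

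CYP1A1, the classical readout of the receptor, had 3.95, 3.76 and 4.36 CPM in chromatin of auxin-treated DIS3-AID cells, against 0.835, 0.882 and 1.12 CPM in untreated DIS3-AID cells. In control cells it had 4.94, 5.05 and 4.88 CPM with auxin, against 1.15, 0.747 and 1.15 CPM without. In both lines every treated library lay above every untreated one, with wide gaps. The gene rested on 199 to 370 counts per library with auxin and 41 to 155 without. The log2 change was 2.11 ± 0.14 (SE) in DIS3-AID cells, or 4.31-fold (adjusted p = 7.8e-09), and 2.23 ± 0.13 in control cells, or 4.68-fold (adjusted p = 4.8e-09). The difference between the lines was -0.12, with a 95% interval of -0.53 to 0.29 (adjusted p = 0.716).

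CYP1B1 had 2.17, 2.02 and 2.88 CPM in chromatin of auxin-treated DIS3-AID cells, against 0.668, 0.579 and 0.79 CPM in untreated ones. Control cells had 2.69, 2.73 and 2.25 CPM with auxin, against 0.945, 1.02 and 0.795 CPM without. The groups did not overlap in either line. Its log2 change was 1.80 ± 0.17 in DIS3-AID cells (adjusted p = 5.1e-07) and 1.51 ± 0.15 in control cells (adjusted p = 3.9e-06), and the difference of 0.29 had an interval of -0.19 to 0.77.

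TIPARP, a mono-ADP-ribosyltransferase that modifies AHR, was far more abundant than the monooxygenases and its changes were of like size in both lines. It had 197, 206 and 222 CPM in chromatin of auxin-treated DIS3-AID cells, against 114, 96.2 and 105 CPM in untreated ones. Control cells had 258, 274 and 230 CPM with auxin, against 127, 122 and 134 CPM without. The log2 changes were 0.99 ± 0.07 in DIS3-AID cells (adjusted p = 3.5e-08) and 0.99 ± 0.07 in control cells (adjusted p = 1.2e-07), and the difference was -0.01 with an interval of -0.22 to 0.21.

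AHRR, the repressor that competes with AHR for ARNT, had 155, 162 and 185 CPM in chromatin of auxin-treated DIS3-AID cells, against 93.3, 92.3 and 96.5 CPM in untreated ones. Control cells had 167, 168 and 199 CPM with auxin, against 104, 111 and 116 CPM without. No treated library overlapped an untreated one. The log2 changes were 0.83 ± 0.07 in DIS3-AID cells (adjusted p = 3.2e-07) and 0.69 ± 0.07 in control cells (adjusted p = 7.6e-06). AHRR shares 244 exonic bases on the same strand with PDCD6, a calcium-binding protein gene, whose chromatin RNA rose by 0.28 ± 0.05 in DIS3-AID cells and 0.25 ± 0.05 in control cells (adjusted p = 0.000285 and 0.00134). How reads in the shared bases were assigned is not given, so AHRR values are uncertain.

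HAS3 and NQO1 were the targets whose chromatin response differed between the lines. HAS3 rose in both. It had 52.9, 47.1 and 43.4 CPM in auxin-treated DIS3-AID cells, against 21.2, 27.4 and 25.4 CPM in untreated ones. Control cells had 27.8, 26.3 and 32.4 CPM with auxin, against 10.7, 10.7 and 10.6 CPM without. The untreated DIS3-AID libraries thus stood near the level that control cells reached with auxin. The log2 change was 0.96 ± 0.09 in DIS3-AID cells (adjusted p = 1.1e-06) and 1.43 ± 0.10 in control cells (adjusted p = 6.3e-08). The difference between the lines of -0.48 passed the test (adjusted p = 0.0183), among 17.7% of features that did so in that comparison. HAS3 shares 365 exonic bases with CHTF8 on the opposite strand. CHTF8, a part of an alternative clamp loader, had chromatin log2 changes of 0.02 ± 0.07 in DIS3-AID cells and 0.05 ± 0.07 in control cells, which did not pass.

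NQO1 and SLC7A5 had the smallest chromatin changes. NQO1 had 24.7, 21.8 and 18.4 CPM in auxin-treated DIS3-AID cells, against 21.1, 24.5 and 22.7 CPM in untreated ones, and the groups overlapped. Control cells had 24.7, 22.8 and 24.6 CPM with auxin, against 19.2, 16.8 and 17.4 CPM without, with no overlap. Its log2 change was -0.07 ± 0.09 in DIS3-AID cells (adjusted p = 0.634) and 0.43 ± 0.09 in control cells (adjusted p = 0.00236). The difference of -0.50 passed (adjusted p = 0.00915). As with HAS3, untreated DIS3-AID cells already had more of this RNA on chromatin than untreated control cells, by 0.35 ± 0.09 on the log2 scale (adjusted p = 0.00495).

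SLC7A5 had 468, 415 and 438 CPM in chromatin of auxin-treated DIS3-AID cells, against 296, 374 and 352 CPM in untreated ones. Control cells had 380, 381 and 551 CPM with auxin, against 318, 335 and 333 CPM without. The log2 changes were 0.37 ± 0.12 in DIS3-AID cells (adjusted p = 0.047) and 0.41 ± 0.12 in control cells (adjusted p = 0.0342). Without control auxin replicate 3, at 551 CPM, the change in control cells was 0.21 (adjusted p = 0.0507). That call was also lost without any 1 of the untreated control libraries or DIS3-AID auxin replicate 1 or 3 (adjusted p up to 0.0916). The DIS3-AID call was lost without any 1 of the DIS3-AID auxin libraries, untreated DIS3-AID replicate 1 or 3 or untreated control replicate 2 or 3 (adjusted p 0.0583 to 0.158).

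**Figure D1:**
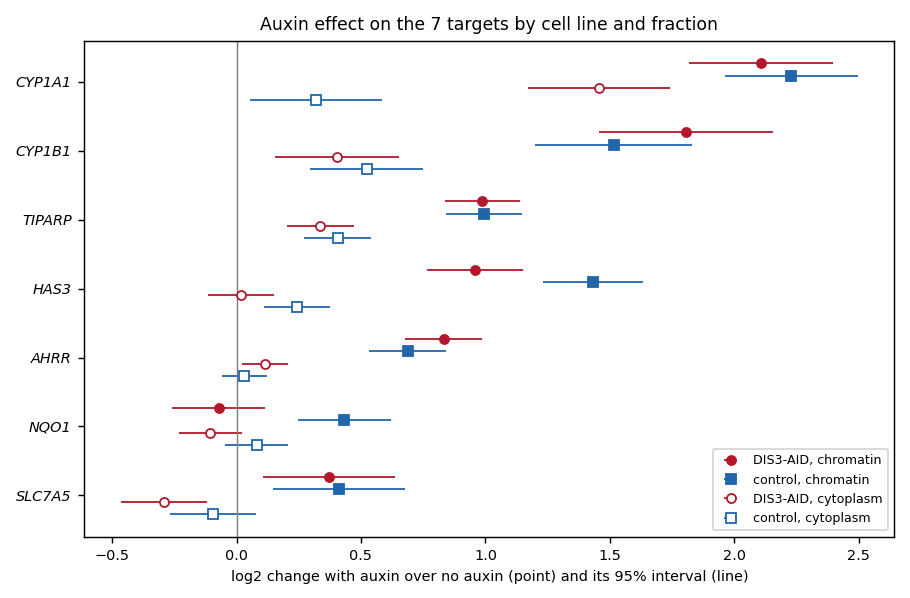
Log2 change with auxin over no auxin (points) and its 95% interval (lines) from edgeR for the 7 targets, in DIS3-AID cells (red circles) and control cells (blue squares), on chromatin (filled) and in the cytoplasm (open), 3 libraries a group. CYP1A1 sits at 2.11 and 2.23 on chromatin and at 1.46 and 0.32 in the cytoplasm, DIS3-AID before control.

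**Figure D2:**
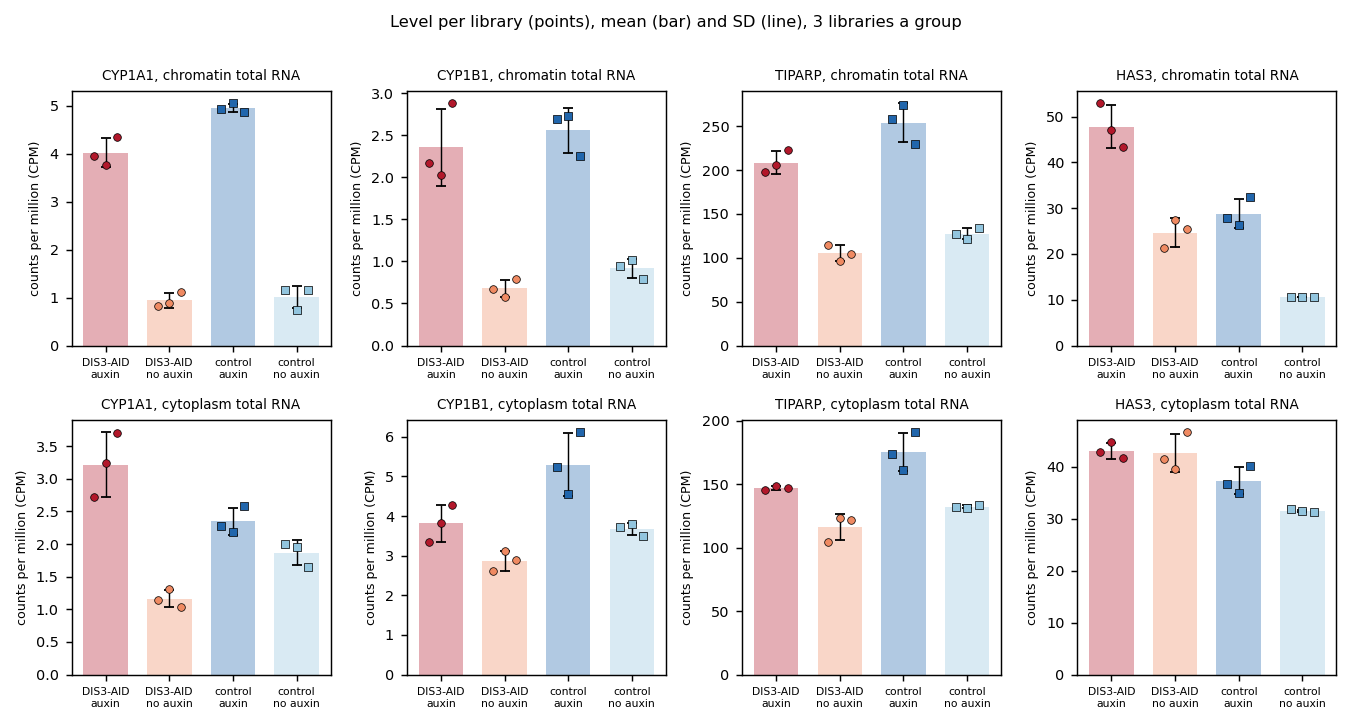
CPM of CYP1A1, CYP1B1, TIPARP and HAS3 in each library (points), with the mean (bar) and SD (line) of 3 libraries a group, on chromatin (top) and in the cytoplasm (bottom). On chromatin every auxin-treated library lies above every untreated library of its line, and untreated HAS3 is higher in DIS3-AID than in control cells.

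In the cytoplasm the same treatment gave a smaller median change of the targets in each line. In auxin-treated against untreated DIS3-AID cells, 3 of 7 targets passed as higher and 1 as lower. Of all 23027 features, 21.1% passed as higher and 13.2% as lower (34.3% in either direction), so the 1 lower call is near its share. In control cells, 1 of 7 passed as higher, where 0.0478% of features passed, or 11 features in all, 5 of them as higher. The median log2 change of the 7 was 0.11 in DIS3-AID cells and 0.24 in control cells, against -0.05 and 0.00 over all features.

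TIPARP was the target that passed in control cytoplasm. It had 145, 148 and 147 CPM in auxin-treated DIS3-AID cells, against 104, 123 and 122 CPM in untreated ones. Control cells had 173, 161 and 191 CPM with auxin, against 132, 131 and 133 CPM without, with no overlap. The log2 change was 0.34 ± 0.06 in DIS3-AID cells (adjusted p = 0.00038). In control cells that of 0.41 ± 0.06 was the fourth by p of 23027 features (adjusted p = 0.0333). The call was lost when any untreated control library, control auxin replicate 1 or DIS3-AID auxin replicate 2 was left out (adjusted p 0.0526 to 0.245), while the change stayed between 0.40 and 0.42. With a replicate block the adjusted p was 0.00106.

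CYP1B1 had 3.34, 3.82 and 4.27 CPM in cytoplasm of auxin-treated DIS3-AID cells, against 2.61, 3.12 and 2.88 CPM in untreated ones. Control cells had 5.24, 4.55 and 6.11 CPM with auxin, against 3.73, 3.79 and 3.5 CPM without. Treated libraries lay above untreated ones in each line. The log2 change in control cells, 0.52 ± 0.11, ranked 29 and did not pass (adjusted p = 0.112), but did with the replicate block (0.52 ± 0.10, adjusted p = 0.0255). In DIS3-AID cells the change was 0.40 ± 0.12 (adjusted p = 0.0127), and the lines did not differ detectably (-0.12, interval -0.46 to 0.22). The DIS3-AID call was lost without untreated replicate 1 or auxin replicate 3 (adjusted p = 0.0657 and 0.0682).

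CYP1A1 had the largest cytoplasmic change of the 7 targets in DIS3-AID cells. It had 2.72, 3.24 and 3.71 CPM in cytoplasm of auxin-treated DIS3-AID cells, against 1.15, 1.31 and 1.04 CPM in untreated ones. Control cells had 2.28, 2.18 and 2.58 CPM with auxin, against 2, 1.95 and 1.65 CPM without. Neither pair overlapped, but the gap was wide in DIS3-AID cells and narrow in control cells. The log2 changes were 1.46 ± 0.14 in DIS3-AID cells and 0.32 ± 0.13 in control cells (adjusted p = 4.9e-08 and 0.736), and their difference of 1.14 ± 0.19 passed (adjusted p = 1.2e-04). It was the 1 target of 7 for which the lines differed in the cytoplasm, where 19.4% of features did, a count not above that share. When only protein-coding genes were tested, 659 of 14396 differed between the lines. Part of the CYP1A1 difference lay in the untreated cells: DIS3-AID cells without auxin had less cytoplasmic CYP1A1 than control cells without auxin, by a log2 change of -0.69 ± 0.14 (adjusted p = 0.00185). After auxin the order was the other way, with 3.22 ± 0.493 CPM in DIS3-AID cells and 2.35 ± 0.208 CPM in control cells (SD, n = 3 each).

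HAS3 and NQO1 did not pass in the cytoplasm of either line, and AHRR lay at the threshold in DIS3-AID cells. HAS3 had log2 changes of 0.02 ± 0.06 in DIS3-AID cells and 0.24 ± 0.06 in control cells (adjusted p = 0.855 and 0.297). AHRR had 0.11 ± 0.04 and 0.03 ± 0.04 in DIS3-AID and control cells (adjusted p = 0.0528 and 0.954), from levels of 71 to 72.3 CPM in treated DIS3-AID, 65.6 to 67.4 in untreated DIS3-AID, 70.9 to 71.9 in treated control and 68.9 to 70.7 CPM in untreated control libraries. In DIS3-AID cells AHRR passed as higher in 15 of 20 alternatives, with an adjusted p of 0.0471 with the replicate block, 0.0152 in DESeq2 and 0.00118 with library sizes alone, where its change was 0.21. NQO1 had -0.11 ± 0.06 and 0.08 ± 0.06 in DIS3-AID and control cells (adjusted p = 0.182 and 0.923).

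SLC7A5, higher with auxin on chromatin, was lower in the cytoplasm of DIS3-AID cells. It had 359, 385 and 414 CPM in auxin-treated DIS3-AID cells, against 472, 426 and 518 CPM in untreated ones, with no overlap. The log2 change was -0.29 ± 0.08 (adjusted p = 0.0113), and -0.10 ± 0.08 in control cells (adjusted p = 0.931). The call in DIS3-AID cells was lost when library sizes alone were used for scaling (-0.19, adjusted p = 0.131), when only protein-coding genes were tested (-0.21, adjusted p = 0.16). It was also lost without untreated DIS3-AID replicate 1 or 3, DIS3-AID auxin replicate 1 or 2 or untreated control replicate 1 (adjusted p 0.0553 to 0.113).

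**Figure D3:**
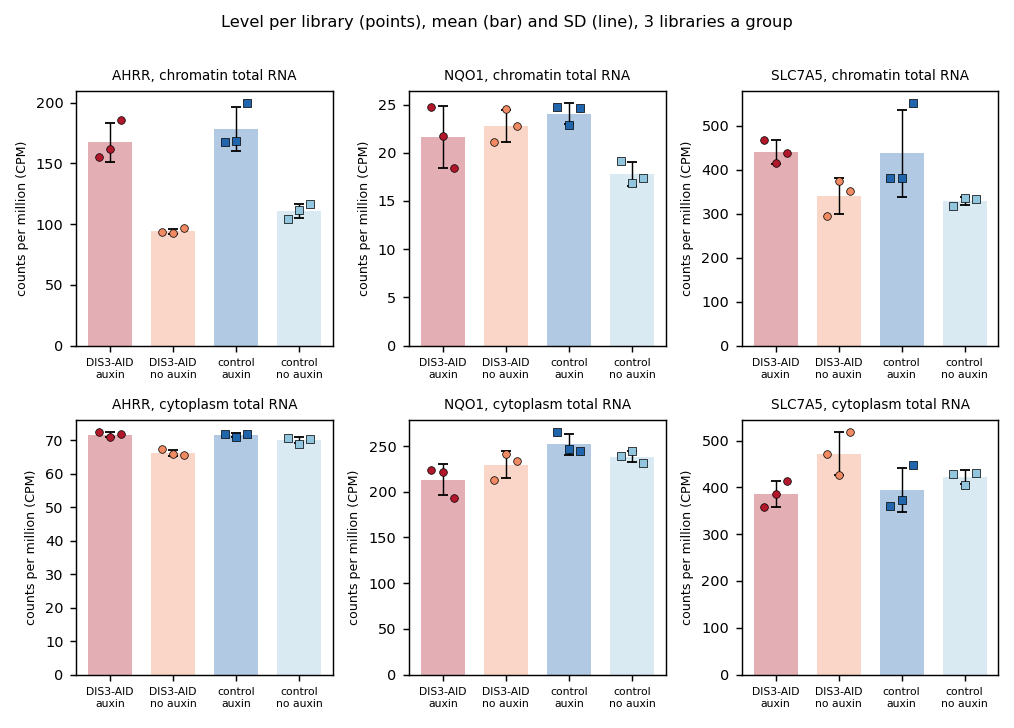
CPM of AHRR, NQO1 and SLC7A5 in each library (points), with the mean (bar) and SD (line) of 3 libraries a group, on chromatin (top) and in the cytoplasm (bottom). AHRR is higher with auxin in both lines on chromatin and lies between 65.6 and 72.3 CPM in every cytoplasm library, while NQO1 on chromatin is higher with auxin in control cells and overlaps in DIS3-AID cells.

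The auxin effect on chromatin was then set against that in the cytoplasm in 1 fit over the 24 total RNA libraries. In DIS3-AID cells the log2 change was higher on chromatin for 6 of 7 targets. Of 27418 features, 22.1% passed as higher there (33.1% in either direction). In control cells 5 of 7 targets passed as higher, where 2.61% of features did (4.88% in either direction). Averaged over the lines, 7 of 7 did, where 13.5% of features did (21.4% in either direction). SLC7A5 is counted though its changes in DIS3-AID cells had opposite signs, 0.37 on chromatin and -0.29 in the cytoplasm. HAS3 differed by 1.12 ± 0.11 in DIS3-AID cells and 1.19 ± 0.12 in control cells (adjusted p = 3.8e-10 and 7.0e-09). CYP1B1 differed by 1.58 ± 0.21 and 1.00 ± 0.19 in DIS3-AID and control cells, TIPARP by 0.83 ± 0.10 and 0.59 ± 0.10, and AHRR by 0.90 ± 0.09 and 0.65 ± 0.09. SLC7A5 differed by 0.84 ± 0.16 in DIS3-AID cells (adjusted p = 4.7e-04) and 0.51 ± 0.16 in control cells (adjusted p = 0.0783), and NQO1 by 0.22 ± 0.11 and 0.35 ± 0.11 (adjusted p = 0.142 and 0.0662). With the replicate block both passed in control cells (adjusted p = 0.0225 for SLC7A5 and 0.0396 for NQO1), making 7 of 7 there, and 7 and 8 of 32 alternatives in all called them.

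For CYP1A1 the fraction difference was not the same in the 2 lines. Its chromatin minus cytoplasm difference was 0.83 ± 0.21 in DIS3-AID cells (adjusted p = 0.00183) and 1.91 ± 0.19 in control cells (adjusted p = 7.1e-09). The change of that difference between the lines, DIS3-AID minus control, was -1.08 ± 0.28 (adjusted p = 0.00447). CYP1A1 was the 1 target of 7 to pass in this comparison, where 21.8% of features passed, a count not above that share. When only protein-coding genes were tested, 2068 of 15098 passed in it. The comparison was added after the values were seen. All of these fraction differences depend on a common scaling of both fractions. In DIS3-AID cells the median over all features was 0.16 with TMM factors and -0.17 with library sizes alone, and with library sizes alone CYP1A1 (0.50, adjusted p = 0.0909) and SLC7A5 (0.51, adjusted p = 0.0589) no longer passed there. Fraction and the day or batch of library preparation cannot be told apart, as the labels give no batch.

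**Figure D4:**
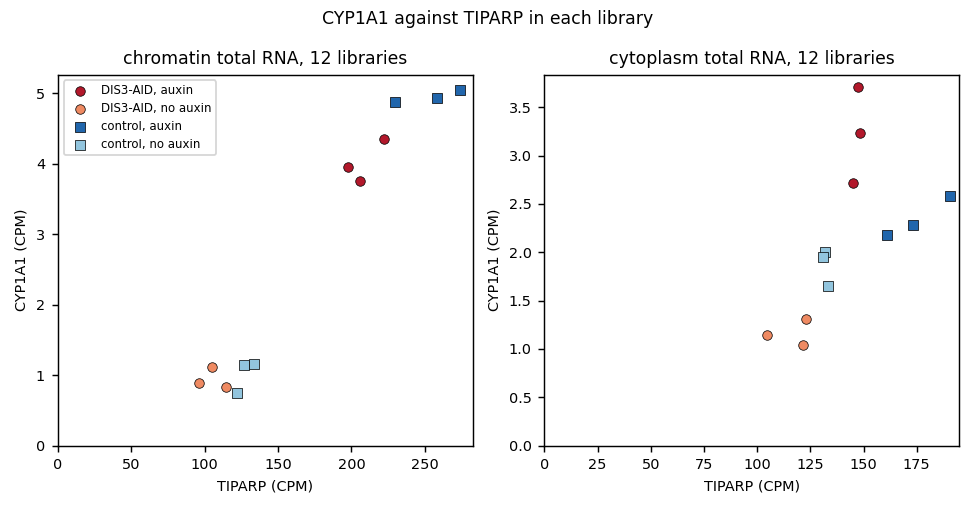
CYP1A1 against TIPARP (both CPM) in each of the 12 chromatin (left) and 12 cytoplasm (right) total RNA libraries, by line and treatment. On chromatin the 6 auxin-treated libraries lie apart from the 6 untreated ones on both axes; in the cytoplasm the auxin-treated DIS3-AID libraries have the highest CYP1A1 (2.72 to 3.71 CPM) but less TIPARP (145 to 148 CPM) than the auxin-treated control libraries (161 to 191 CPM).

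The levels of the 7 genes, as CPM per kb of exon, spanned a wide range in untreated control cells. In the cytoplasm the order was SLC7A5 (88.8 ± 3.16), NQO1 (73.2 ± 1.94), TIPARP (26.2 ± 0.233), AHRR (9.11 ± 0.122), HAS3 (5.96 ± 0.05), CYP1B1 (0.611 ± 0.0252) and CYP1A1 (0.543 ± 0.0557; SD, n = 3 each). On chromatin it was SLC7A5 (69.3 ± 1.99), TIPARP (25.3 ± 1.2), AHRR (14.4 ± 0.765), NQO1 (5.47 ± 0.377), HAS3 (2.02 ± 0.00608), CYP1A1 (0.296 ± 0.0678) and CYP1B1 (0.153 ± 0.0191). No neighbours in either order overlapped, though CYP1B1 (lowest 0.5824) and CYP1A1 (highest 0.5816) in the cytoplasm were all but touching. NQO1 moved furthest between the orders, with a chromatin over cytoplasm log2 difference of -4.38 ± 0.09. The difference was -2.67 ± 0.14 for CYP1B1, -2.20 ± 0.09 for HAS3, -1.47 ± 0.14 for CYP1A1, -0.998 ± 0.12 for SLC7A5 and -0.69 ± 0.07 for TIPARP, and 0.02 ± 0.07 for AHRR, which alone did not pass (90.2% of features passed). With library sizes alone the median over all features was 0.76 in place of 0.10, the TIPARP difference was -0.03 and did not pass, and that of AHRR was 0.68 and did.

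Without auxin, the DIS3-AID clone already differed from the control line at several targets. In the cytoplasm 4 of 7 passed, where 22.1% of features did: HAS3 was higher by 0.43 ± 0.06 (adjusted p = 9.3e-05), and CYP1A1 (-0.69 ± 0.14), CYP1B1 (-0.36 ± 0.12) and TIPARP (-0.18 ± 0.06) were lower. On chromatin 4 of 7 passed, where 32.5% did: HAS3 was higher by 1.21 ± 0.10 (adjusted p = 5.2e-08) and NQO1 by 0.35 ± 0.09, while TIPARP (-0.28 ± 0.07) and AHRR (-0.24 ± 0.07) were lower. The AHRR call (adjusted p = 0.019) was lost without untreated DIS3-AID replicate 2 or untreated control replicate 2 or 3 (adjusted p 0.0537 to 0.0929). The cytoplasmic CYP1B1 and TIPARP calls (adjusted p = 0.034 and 0.0492) were both lost with RLE scaling, library sizes alone, DESeq2 and protein-coding genes only, and that of TIPARP also with min.count 50 and only the groups compared. Leaving out any 1 of 6 libraries for CYP1B1 (adjusted p 0.061 to 0.182), untreated DIS3-AID replicates 1 and 3, DIS3-AID auxin replicate 2 and all untreated control ones, also lost the call. For TIPARP any 1 of 9 did (0.0536 to 0.33), all but untreated DIS3-AID replicates 2 and 3 and control auxin replicate 3, and without untreated DIS3-AID replicate 1 its value was -0.10. HAS3 was higher in untreated DIS3-AID than in untreated control cells in every data set, with 24.7 ± 3.16 against 10.7 ± 0.0321 CPM on chromatin, 42.6 ± 3.65 against 31.5 ± 0.264 CPM in the cytoplasm and 2.4 ± 0.364 against 1.62 ± 0.11 CPM in polyA RNA (SD, n = 3 each). In polyA RNA it was the 1 target of 5 that passed (0.56 ± 0.17, adjusted p = 0.0295), where 11.9% of features did. That call was lost without untreated DIS3-AID replicate 1 or 3 or untreated control replicate 2 or 3 (adjusted p 0.0795 to 0.19), in DESeq2 (0.0791) and with no filter on low counts (0.0759). SLC7A5 polyA RNA was also higher without overlap (0.405, adjusted p = 0.0727) and passed in 8 of 20 alternatives (adjusted p = 0.0111 with the replicate block). AHRR polyA RNA (-0.405, adjusted p = 0.105) passed as lower in 2 of 20.

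In polyA RNA of the cytoplasm, 5 targets could be tested, and these values appear to cover the non-coding transcript models of each gene: the tables list 99.07% of protein-coding genes that have a non-coding model and 0.83% of those that have none. For auxin, 0 of the 5 passed in DIS3-AID cells, where 17% of 16651 features did, and 0 in control cells, where 0.048% did. DESeq2 called 0 in either line, and 1 of the 5 in each line, CYP1B1, had an unadjusted p below 0.05. CYP1B1 had 3.67, 4.21 and 4.08 CPM in auxin-treated DIS3-AID cells, against 2.81, 3.31 and 2.9 CPM in untreated ones. Control cells had 4.73, 4.9 and 5.74 CPM with auxin, against 3.67, 3.3 and 2.89 CPM without. The log2 changes were 0.40 ± 0.14 in DIS3-AID cells (adjusted p = 0.0513) and 0.64 ± 0.13 in control cells (adjusted p = 0.059, or 0.0494 with the replicate block). Averaged over both lines the change of 0.52 ± 0.10 passed (adjusted p = 6.9e-04), where 8.71% of features did.

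Averaged over both lines, which sets each treated group against its own untreated group, 7 of 7 targets passed on chromatin (20.1% of features) and 5 of 7 in the cytoplasm (25%). On chromatin CYP1A1 ranked 3 of 24966 features by p, with a log2 change of 2.17 ± 0.09, TIPARP 5 (0.99 ± 0.05), HAS3 7 (1.19 ± 0.07), CYP1B1 12 (1.66 ± 0.11) and AHRR 17 (0.76 ± 0.05). NQO1 (0.18 ± 0.06, adjusted p = 0.0486) and SLC7A5 (0.39 ± 0.09, adjusted p = 0.0059) ranked 4961 and 2242, and the NQO1 call was lost in 12 of 19 alternatives. In the cytoplasm CYP1A1 (0.89 ± 0.09), CYP1B1 (0.46 ± 0.08), TIPARP (0.37 ± 0.05) and HAS3 (0.13 ± 0.04) passed as higher and SLC7A5 (-0.19 ± 0.06) as lower. The HAS3 and SLC7A5 calls there were lost in 9 and 11 of 19 alternatives.

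CYP1A1, CYP1B1, TIPARP and AHRR varied together over the 24 total RNA libraries. With log2 values centred within each fraction, the 3 features most like TIPARP by Pearson's r among 20890 were CYP1B1 (r = 0.967), CYP1A1 (r = 0.916) and AHRR (r = 0.904). For CYP1A1 they were TIPARP, CYP1B1 (r = 0.905) and AHRR (r = 0.894), and for CYP1B1 they were TIPARP, AHRR (r = 0.916) and CYP1A1. HAS3 was less like them, with r of 0.613 to CYP1A1, 0.52 to CYP1B1 and 0.469 to TIPARP, and NQO1 had r of 0.309, 0.286 and 0.312 to the same genes. These coefficients describe libraries that share lines, treatment and depth, and are given without a test.

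Genes of the receptor's own machinery passed in both directions on chromatin. Of 16 genes for AHR, its partners, chaperones and coactivators, 3 passed as higher and 2 as lower on chromatin of auxin-treated DIS3-AID cells, and 1 and 3 in control cells. Over all features 11% passed as higher and 9.54% as lower in DIS3-AID chromatin, and 9.02% and 7.97% in control chromatin. In DIS3-AID cells the largest were ARNT2 (-0.45 ± 0.08), a brain-enriched relative of ARNT, and ARNT itself (-0.35 ± 0.05, adjusted p = 1.4e-04), whose change in control cells was 0.00 ± 0.05. HSP90AA1, a chaperone of the unliganded receptor, and PTGES3, which encodes p23, were lower in control chromatin (-0.34 ± 0.07 and -0.32 ± 0.06, adjusted p = 0.00159 and 9.6e-04). AHR had -0.26 ± 0.10 in DIS3-AID and 0.04 ± 0.10 in control chromatin, which did not pass. In DIS3-AID cytoplasm AHR was lower (-0.18 ± 0.06, adjusted p = 0.0213), as 1 of 9 genes of the 16 that passed there, all as lower, where 13.2% of features passed as lower and 21.1% as higher. Lower calls there depended on scaling: 3040 of 23027 features passed as lower with TMM and 681 with library sizes alone. In control cytoplasm 0 of the 16 passed in edgeR and 0 in DESeq2, and 1 had an unadjusted p below 0.05.

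Among 26 further genes known to respond to AHR ligands, 16 were measured well enough on chromatin, and 4 passed as higher and 3 as lower in DIS3-AID cells (11% and 9.54% of features), and 3 and 2 in control cells (9.02% and 7.97% of features). STC2, a secreted glycoprotein, rose in both lines by 0.82 ± 0.06 and 0.76 ± 0.06 in DIS3-AID and control cells (adjusted p = 1.2e-08 and 1.2e-07). ALDH3A1, an aldehyde dehydrogenase induced by dioxin in liver cells, rose in DIS3-AID cells (1.29 ± 0.26, adjusted p = 0.00179) and had 0.15 ± 0.33 in control cells (adjusted p = 0.804). Its difference between the lines, 1.14 ± 0.42, did not pass (adjusted p = 0.0692). HES1, a Notch target and transcriptional repressor, rose in control cells (0.48 ± 0.12). AREG, an EGF receptor ligand, fell by 0.57 and 0.29 on the log2 scale in DIS3-AID and control cells (SE 0.07 each). The median of these 16 was -0.14 in DIS3-AID and 0.16 in control cells, against 0.00 and 0.01 over all features. In control cytoplasm 0 of its 15 measured genes passed in edgeR and 0 in DESeq2, and 3 had an unadjusted p below 0.05.

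Genes of other pathways in which single targets take part moved in both directions on chromatin, where 20.5% of all features passed in DIS3-AID cells (11% as higher, 9.54% as lower) and 17% in control cells (9.02% and 7.97%). Of 14 NRF2 targets, 2 rose and 2 fell on chromatin of DIS3-AID cells, and 4 rose and 1 fell in control cells, where GCLC, a subunit of the enzyme that starts glutathione synthesis, rose (0.42 ± 0.05) and TXNRD1, thioredoxin reductase, rose (0.33 ± 0.05). GCLC fell in DIS3-AID cells (-0.23 ± 0.05), and TXNRD1 rose (0.23 ± 0.05). Of 15 amino acid response genes, 1 rose and 2 fell in DIS3-AID chromatin, and 1 rose in control chromatin, namely ATF3, a stress-induced transcription factor (0.58 ± 0.14). Of 9 measured hyaluronan genes, 3 fell in DIS3-AID chromatin, UGDH among them, which makes the UDP-glucuronate that HAS3 uses (-0.34 ± 0.07), and 1 rose in control chromatin. Of 11 hypoxia targets, included because hypoxia also acts through ARNT, 1 rose and 2 fell in DIS3-AID chromatin, and 4 rose and 2 fell in control chromatin, where KDM3A, a histone demethylase, had the largest change (0.68 ± 0.09). In control cytoplasm 0 genes of these 4 lists passed in edgeR or DESeq2, and 1, 2, 0 and 3 of them, in the same order, had an unadjusted p below 0.05. In DIS3-AID cytoplasm 3 of 14, 9 of 15, 4 of 8 and 7 of 11 fell and 0 rose, where 13.2% of all features fell and 21.1% rose. These counts are with TMM scaling, on which lower calls depended. Of 23027 features, 3040 passed as lower with TMM and 681 with library sizes alone.

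Transcripts next to the targets were checked because their reads can fall in the same bases. On the opposite strand, CYP1B1 shares 678 exonic bases with CYP1B1-AS1, which was not among the features counted, and 96 with RMDN2. NQO1 shares 575 exonic bases with ENSG00000261602 and SLC7A5 shares 271 with ENSG00000260466, also on the opposite strand. The strand setting of the counting is not given, so values of these 3 targets are uncertain too. TIPARP-AS1, which starts across from TIPARP and shares 37 exonic bases with it on the opposite strand, had 0.577 ± 0.0348 CPM in chromatin of auxin-treated DIS3-AID cells and 0.218 ± 0.0973 CPM in untreated ones (SD, n = 3 each), a log2 change of 1.44 ± 0.28 (adjusted p = 0.0012). In control chromatin its change of 0.69 ± 0.33 did not pass (adjusted p = 0.162), and neither did the difference between the lines. RMDN2-AS1, which shares 69 exonic bases with CYP1B1 on the same strand, rose on chromatin by 1.57 ± 0.36 in DIS3-AID cells and 1.34 ± 0.32 in control cells (adjusted p = 0.00411 and 0.00722), on 4 to 38 counts per library. NQO1-DT, divergent from NQO1, had 2.97 ± 0.121 CPM in cytoplasm of auxin-treated DIS3-AID cells and 0.747 ± 0.0981 CPM in untreated ones, a log2 change of 1.98 ± 0.13 (adjusted p = 4.3e-10), against 0.03 ± 0.15 in control cells. On control chromatin, where NQO1 rose, NQO1-DT fell by 0.46 on the log2 scale (SE 0.13, adjusted p = 0.0199). EXOC3-AS1, downstream of AHRR, rose on chromatin of both lines (1.09 ± 0.20 and 0.65 ± 0.22 in DIS3-AID and control cells) and in DIS3-AID cytoplasm (1.28 ± 0.12).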

How the data were processed

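The starting point was the authors' deposited count tables, 1 for each library, made from TruSeq Stranded total RNA and Illumina Stranded mRNA libraries, per the labels' protocols. STAR 2.7.3a, Cufflinks 2.2.1, featureCounts 2.0.0 and hg38 are named in the submitters' processing notes, without parameters or strand setting, so reads of overlapping genes could be split or shared. All values were whole numbers, and no 2 libraries were duplicates (chi-square per degree of freedom between replicates 2.62 or more). The 7 targets, the other gene lists and the rules were chosen with earlier results of these data known. Named genes were the targets, DIS3, genes within 5000 bases of a target, up to 4 of the largest called changes of each list, and the 3 features most like CYP1A1, CYP1B1 and TIPARP.

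Each data set was filtered with filterByExpr (min.count 10), scaled by TMM and fitted with its 4 groups in edgeR 4.0.16 (robust quasi-likelihood tests, Benjamini-Hochberg adjustment over all features, threshold 0.05; R 4.3.3, limma 3.58.1, Python 3.11.15). Chromatin and cytoplasm were also fitted together over 24 libraries. CPM use TMM-scaled library sizes, and positions are from GENCODE 29. The fits were tested on simulated counts. Alternatives were RLE scaling, library sizes alone, no filter, a filter at min.count 50, DESeq2 1.42.0, a replicate block, only the groups compared, each library left out, and, added after seeing the data, protein-coding genes only. Same-numbered libraries were checked for pairing by correlating their deviations from group means. Over all features tested, no comparison had r over 0.1 in all 3 pairs. Over features averaging at least 200 counts, auxin in control cytoplasm (r 0.119 to 0.337) and in control polyA RNA (0.104 to 0.208) did. Blocked values are therefore given for TIPARP and CYP1B1 in the former and for CYP1B1 in the latter. With the block the other targets did not pass in these comparisons either (in control cytoplasm, adjusted p = 0.106 for HAS3 and 0.532 for CYP1A1).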

Additional observations from a re-analysis of the deposited data

Results flagged for a closer look

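Several auxin effects differed between the lines or the fractions by the test of the difference itself, in edgeR at an adjusted p below 0.05. Between lines, as DIS3-AID minus control, the log2 difference in the cytoplasm was 1.14 for CYP1A1, 1.26 for EXOC3-AS1 and 1.95 for NQO1-DT. On chromatin it was -0.48 for HAS3, -0.50 for NQO1 and 0.57 for NQO1-DT, and in polyA RNA 0.62 for EXOC3-AS1. NQO1 and its divergent neighbour NQO1-DT thus differed between lines in opposite directions on chromatin.

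Between fractions, as chromatin minus cytoplasm in DIS3-AID cells, the log2 difference was 0.83 for CYP1A1, 1.58 for CYP1B1, 0.83 for TIPARP, 1.12 for HAS3, 0.90 for AHRR, 0.84 for SLC7A5 and -1.70 for NQO1-DT. In control cells it was 1.91 for CYP1A1, 1.00 for CYP1B1, 0.59 for TIPARP, 1.19 for HAS3 and 0.65 for AHRR. The change of this fraction difference between lines was -1.08 for CYP1A1 and -1.20 for NQO1-DT. Causes of these differences were not tested, and groups of 3 are too small for a check of single outlying libraries.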

How the results depend on the processing

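The chromatin calls of CYP1A1, CYP1B1, TIPARP, HAS3 and AHRR for auxin in each line and averaged held under every alternative run, and no called target changed sign. Over all targets and comparisons, 915 of 988 values kept their side of the threshold under other settings (27 lost it, 46 gained it), as did 1884 of 1980 when 1 library was left out (74 lost it, 22 gained it). The number of targets called moved by over 1.5 times in 19 of 152 cases, and the cause was not tested. For auxin in control cytoplasm, 1 target was called, against 3 with no filter on low counts, 2 in DESeq2, 2 with the replicate block and 0 among protein-coding genes only; the features called in all were 245, 64, 62 and 1 under these, against 11, and 4 with RLE scaling and 6 with min.count 50. In polyA RNA, 0 were called for auxin in DIS3-AID cells, against 1 as higher with library sizes alone and 1 as lower with no filter. The 1 as higher was CYP1B1 and the 1 as lower was SLC7A5 (adjusted p = 0.00118). In control cells 0 were called, against 1 with no filter and 1 with the replicate block. Averaged over lines it was 1, against 2 with no filter (1 higher and 1 lower). For untreated DIS3-AID against control cells, 4 were called in the cytoplasm, against 2 with RLE scaling, library sizes alone, DESeq2 or protein-coding genes only. In polyA RNA 1 was called, against 2 with min.count 50, only the groups compared or protein-coding genes only, and 3 with the replicate block. For the change of the fraction difference between lines, 1 was called, against 2 with library sizes alone and 2 with no filter. The block moved no other number of called targets by over 1.5 times.

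Leaving out 1 library gave 0 to 1 called targets for auxin in control cytoplasm, 3 to 4 for auxin averaged in the cytoplasm (5 with all libraries), 0 to 1 for auxin in DIS3-AID polyA RNA, 2 to 4 and 0 to 2 for untreated DIS3-AID against control cells in cytoplasm and polyA RNA, and 1 to 2 for the change of the fraction difference between lines. Depth limits CYP1A1 and CYP1B1 most, at 41 to 599 counts per total RNA library, and counts do not tell RNA synthesis from decay or retention.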

Other observations

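Beyond the 3 nearest features, those most like the targets over the 24 total RNA libraries were named after their values were seen. For CYP1A1 the next were SMAD3, a transducer of TGF-beta signals (r = 0.894), GDA, guanine deaminase (r = 0.877), and the lncRNA LINC00511 (r = 0.862). For CYP1B1 they were STC2 (r = 0.901), PDCD6 (r = 0.865) and ADGRF1, an adhesion G protein-coupled receptor (r = 0.849). For TIPARP they were SMAD3 (r = 0.89), STC2 (r = 0.885) and IQCG (r = 0.846). PDCD6 overlaps AHRR on the same strand. No relation of these genes to AHR was tested.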
